A study of Mus musculus with 6 samples.

Results

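10 genes of fatty acid synthesis are described here in regenerating mouse liver: Acly, Acaca, Acacb, Fasn, Me1, Elovl6, Scd1, Gpam, and the lipogenic regulators Srebf1 and Thrsp. They were listed by name, and every probe that carries a RefSeq accession of one of them was kept, which gave 16 of the 55681 probes that were not controls, for 10 of the 20018 named genes on the array. Gene expression was measured on single-colour arrays in the right liver lobe, taken 3 days after an operation on male mice of the C57BL/6J strain. In the PVBL group (n = 3) the left branch of the portal vein had been ligated and the right lobe was taken as the regenerating lobe, and the sham group (n = 3) had been sham-operated. Both groups were of the same strain and sex, and their ages are not given in the sources used here. Whether the numbered samples of a group are different animals is not given in the labels. The p-values below therefore rest on sample-to-sample spread alone, and part of that spread may be technical.

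The liver makes fat from carbohydrate in the cytosol. Citrate exported from mitochondria is cleaved to acetyl-CoA, acetyl-CoA is carboxylated to malonyl-CoA, and fatty acid synthase joins these units into palmitate with NADPH as the reductant. Palmitate is then elongated, desaturated and esterified, and insulin (through SREBP-1c, the product of Srebf1) and glucose (through ChREBP, the product of Mlxipl) raise the transcription of many of these genes in the fed state.

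All values below are log2 levels relative to the 75th percentile of the same array, so 0 is the signal of that percentile and a step of 1 is a doubling. Levels of different probes are not comparable, and only differences are set side by side. The signal at that percentile was between 331 and 407 units on the PVBL arrays and between 203 and 315 units on the sham arrays, lowest on sham 3. All 16 probes were well above background on all 6 arrays and 0 were saturated. The samples are labelled as liver, and 9 hepatocyte markers were above background on all arrays. Albumin (Alb), the main plasma protein, differed by -0.28 ± 0.16 (SE, limma adjusted p = 0.203) and was called lower in 1 of 19 alternative settings. Summed marker signals, in multiples of the 75th percentile, nonetheless differed between the groups for several cell types. They ran from 4760 to 5810 in PVBL and from 6500 to 7180 in sham for hepatocyte markers, from 7.94 to 23 and from 2.4 to 5.04 for the 6 biliary markers, from 20.9 to 48.6 and from 11.8 to 15.7 for the 8 stellate and fibroblast markers, and from 45.1 to 66.4 and at least 101 for the 6 endothelial markers. Of the stellate and fibroblast markers 4 were called higher (Col1a1, Col1a2, Col3a1 and Acta2), 1 lower (Lrat) and 3 neither. Of the 5 biliary markers tested 4 were called higher and 1 neither, and Spp1 was the largest term of that sum on every array. Hepatocyte markers had 2 called lower and 7 neither, and endothelial markers 1 lower and 5 neither. Macrophage sums overlapped, from 89.7 to 239 in PVBL and from 106 to 123 in sham, with 1 marker (Marco) called higher and 4 neither. Lymphocyte sums ran from 4.87 to 6.67 in PVBL and from 6.9 to 8.46 in sham, with 1 marker called lower and 4 neither. None of these sums thus stood for every member. The part of these shifts in the results below was not tested, and in whole tissue fewer cells of a type and less RNA per cell cannot be told apart. Adipocytes also carry the lipogenic enzymes. The summed adipocyte list was 10.4 to 14.8 in PVBL and 5.59 to 8.72 in sham, but 3 of its 8 markers, Adipoq, Plin1 and Retn, were not well above background on any array. Among the 5 tested, Fabp4 (1.11) was called higher and Cfd (-2.80) and Lipe (-0.91) lower. Cidea was also called higher and Lep lower, but Cidea was well above background on 0 sham arrays and Lep on 0 PVBL arrays. Both passed the filter only through the group where they were high, so no size is given for them. All arrays shared 1 slide, with one row of it for each group, and the effects of row and operation cannot be told apart.

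The 10 genes did not move as a block. Srebf1, Acacb and Thrsp were lower in the regenerating lobe, by 2.43-fold, 2.50-fold and 2.23-fold, whereas no probe of the remaining 7 genes passed the test in either direction. In the limma fit over 27909 probes, 4 of the 16 member probes were called lower and 0 higher at an adjusted p below 0.05, and 4 and 0 were lower and higher at an unadjusted p below 0.05. Probes of a gene share their target, and 2 of the 4 are Acacb probes. Of all tested probes 19.3% were called lower and 11.3% higher, 30.5% in all, and the 4 of 16 have to be read against these shares. The median difference over the members, each by its brightest probe, was -0.26, beside -0.19 over all tested probes and -0.1 over named genes, with 8 members below 0 and 2 above. This median took the other sign when the arrays were scaled on spike-in controls (0.16) or on hepatocyte markers (0.12), while the medians of all probes then lay at 0.23 and 0.19.

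**Figure D1:**
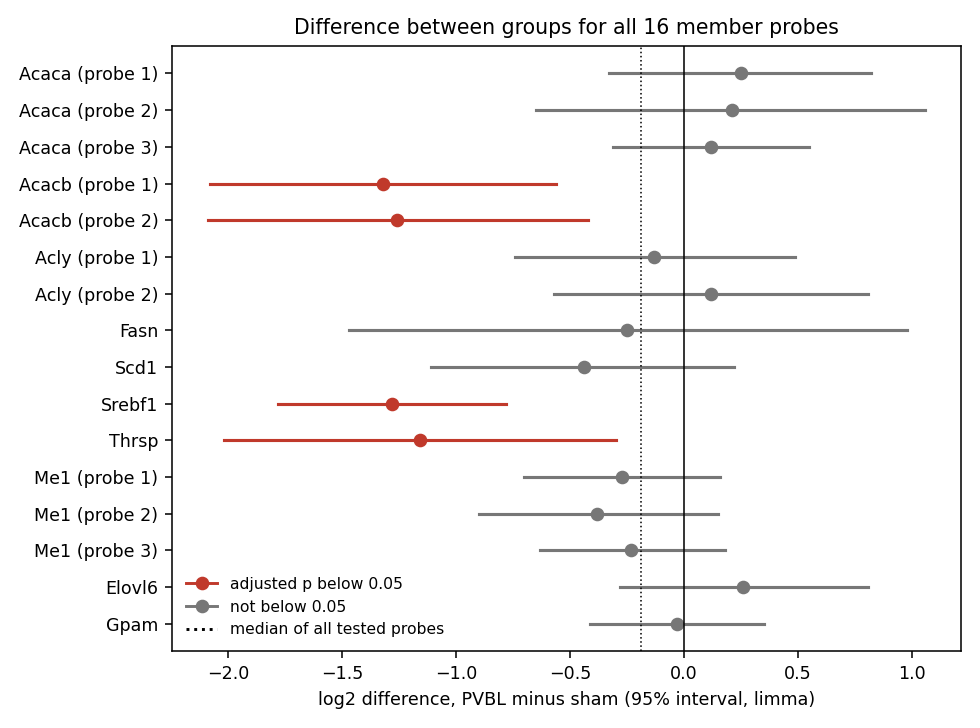
Log2 difference of PVBL minus sham for each of the 16 member probes, with 95% intervals from limma over 3 arrays a group, red where the adjusted p was below 0.05 and grey otherwise, and the median of all tested probes (-0.19) as a dotted line. The intervals of the Srebf1, Acacb and Thrsp probes lie wholly below 0, and those of every other probe include 0.

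Srebf1 encodes SREBP-1, the membrane-bound transcription factor whose 1c form drives the lipogenic enzymes in response to insulin. Its probe read 0.62, 0.45 and 0.09 on PVBL 1 to 3 and 1.64, 2.01 and 1.37 on sham 1 to 3. Every PVBL array was below every sham array, with 0.74 between the nearest values. Groups without overlap were seen in 50.7% of all tested probes, 33.1% with PVBL lower, and in 4 of the 16 member probes (25%). The means were 0.39 ± 0.27 (SD, n = 3) and 1.67 ± 0.32 (SD, n = 3), a difference of -1.28 ± 0.21 (SE) with a 95% interval from -1.78 to -0.78 and a limma adjusted p of 0.0062. Leaving out any 1 array left the call standing, with differences from -1.43 to -1.11. Scaling to spike-in controls ended it (-0.87, adjusted p = 0.901), and scaling to hepatocyte markers did not (-0.90, adjusted p = 0.0361). A single probe was matched to the gene, and whether it reads the 1a transcript, the 1c transcript or both was not tested.

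Srebf2, the paralog that drives cholesterol synthesis, was not called. It read 0.45, -0.05 and 0.27 in PVBL and -0.01, -0.09 and -0.39 in sham, a difference of 0.39 ± 0.18 (SE, adjusted p = 0.136). In 1 of 19 alternative settings Srebf2 was called higher. Within an array, where the scaling cancels, Srebf1 minus Srebf2 was 0.17, 0.50 and -0.18 in PVBL and 1.65, 2.10 and 1.76 in sham. The change of -1.67 left the groups apart, with an exact two-sided permutation p of 0.1, the smallest that 3 against 3 allows, and 0.2 after adjustment over the 4 gene pairs compared.

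The 4 stretches printed here are the 250 bases before an annotated transcription start of the 3 genes that were lower and of Fasn, which was not called, so that the promoters can be read beside the values. They are from RefSeq, build GRCm38.p6, 5′ to 3′ on the gene's strand: chr11:60210472-60210721 (minus strand) for Srebf1, of its 3 listed starts the window that holds liver X receptor elements, chr5:114165268-114165517 (plus strand) for Acacb, chr7:97417551-97417800 (minus strand) for Thrsp and chr11:120824548-120824797 (minus strand) for Fasn. Capitals mark matches, on either strand, to the motifs searched.
Srebf1: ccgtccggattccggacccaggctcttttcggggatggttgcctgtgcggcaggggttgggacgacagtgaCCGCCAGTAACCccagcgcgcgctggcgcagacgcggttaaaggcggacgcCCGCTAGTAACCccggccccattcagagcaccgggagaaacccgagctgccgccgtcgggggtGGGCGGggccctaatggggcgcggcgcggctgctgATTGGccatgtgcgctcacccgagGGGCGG
Acacb: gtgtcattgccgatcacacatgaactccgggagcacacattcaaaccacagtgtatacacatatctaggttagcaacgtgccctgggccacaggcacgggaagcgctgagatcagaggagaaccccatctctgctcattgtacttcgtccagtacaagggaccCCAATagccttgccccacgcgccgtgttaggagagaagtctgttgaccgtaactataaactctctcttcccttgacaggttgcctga
Thrsp: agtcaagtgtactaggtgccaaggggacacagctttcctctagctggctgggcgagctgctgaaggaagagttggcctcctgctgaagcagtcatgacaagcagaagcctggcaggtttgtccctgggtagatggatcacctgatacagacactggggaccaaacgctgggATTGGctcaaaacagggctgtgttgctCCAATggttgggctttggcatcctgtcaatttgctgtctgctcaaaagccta
Fasn: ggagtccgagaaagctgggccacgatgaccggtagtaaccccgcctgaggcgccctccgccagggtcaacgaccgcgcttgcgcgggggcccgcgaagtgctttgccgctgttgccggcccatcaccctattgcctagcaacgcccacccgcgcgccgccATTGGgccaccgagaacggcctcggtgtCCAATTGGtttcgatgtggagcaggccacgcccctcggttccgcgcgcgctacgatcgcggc
The motifs were the sterol regulatory element (TCACNCCAC), the E-box of the carbohydrate response element (CACGTG), the CCAAT box (CCAAT), the GC box (GGGCGG) and the liver X receptor element known from the Srebf1 promoter. The Srebf1 window held the last of these at 179 to 168 and again at 128 to 117 bases before the start, GC boxes at 65 to 60 and 6 to 1, and a reverse CCAAT box at 30 to 26. That element was in 2 of 32851 promoter windows (0.00609%), but its letters were taken from known elements of this gene, so its rarity follows from the choice. The Acacb window held a CCAAT box at 87 to 83 bases before the start. In Thrsp the box lay at 79 to 75 (reverse) and 52 to 48, and in Fasn at 90 to 86 (reverse) and at 62 to 58, where a reverse box at 59 to 55 overlaps it. Over the 13 windows of the 9 members that were listed, CCAAT was in 7 windows of 6 members, against 33.8% of all windows, and GGGCGG in 5 windows of 4 members, against 32.7%. The sterol regulatory letters, in 1.05% of all windows, and the E-box letters, in 6.02%, were in 0 of the 13. The called and uncalled genes printed here thus both carried CCAAT boxes, and the match is a description of letters only.

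Acetyl-CoA carboxylase makes malonyl-CoA, and 1 of its 2 isoenzymes was called. The cytosolic form, ACC1 (Acaca), supplies fatty acid synthase, and the form at the outer mitochondrial membrane, ACC2 (Acacb), makes the malonyl-CoA that inhibits carnitine palmitoyltransferase and so fatty acid oxidation. The brighter Acacb probe read 2.72, 2.96 and 2.94 in PVBL and 4.31, 4.82 and 3.45 in sham. The PVBL arrays were close together and all lay below the lowest sham array, by 0.49. The means of 2.87 ± 0.13 and 4.19 ± 0.69 (SD, n = 3 each) differed by -1.32 ± 0.32 (SE; 95% interval -2.08 to -0.56; adjusted p = 0.0229). The second Acacb probe read -1.38, -0.91 and -0.85 in PVBL and 0.22, 0.93 and -0.52 in sham, again without overlap, and differed by -1.26 ± 0.36 (SE, adjusted p = 0.0364). Both probes gave nearly the same fold, 2.50 and 2.39 lower. The call did not stand in every fit without 1 array, and each such fit also has fewer arrays to test with. The brighter probe lost it without PVBL 1 (-1.24), PVBL 2 (-1.36), sham 1 (-1.26) or sham 2 (-1.01) and kept it without PVBL 3 (-1.36) or sham 3 (-1.69). It was also lost with spike-in scaling (-0.91), hepatocyte-marker scaling (-0.94) and without the filter on dim probes (-1.32). The second probe was called without sham 3 (-1.62) and lost its call without any other array (-1.36 to -0.89).

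Acaca read 4.90, 4.62 and 5.06 in PVBL and 4.60, 5.07 and 4.17 in sham in its brightest probe. The sham values spanned the PVBL values, and the difference was 0.25 ± 0.24 (SE; 95% interval -0.33 to 0.82; adjusted p = 0.457). The other Acaca probes differed by 0.21 ± 0.36 and 0.12 ± 0.18 (adjusted p = 0.677 and 0.638). Acacb minus Acaca within an array was -2.18, -1.66 and -2.12 in PVBL and -0.29, -0.25 and -0.72 in sham. That contrast was thus lower on every PVBL array, by 1.57 in the mean, and by 1.47 to 1.73 when any 1 array was left out. Its exact two-sided permutation p was 0.1, the smallest possible, and 0.2 adjusted over the 4 pairs. The size was nearly the same after normexp background correction (-1.59) and quantile normalization (-1.62), and a constant scaling of an array cannot move it.

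**Figure D2:**
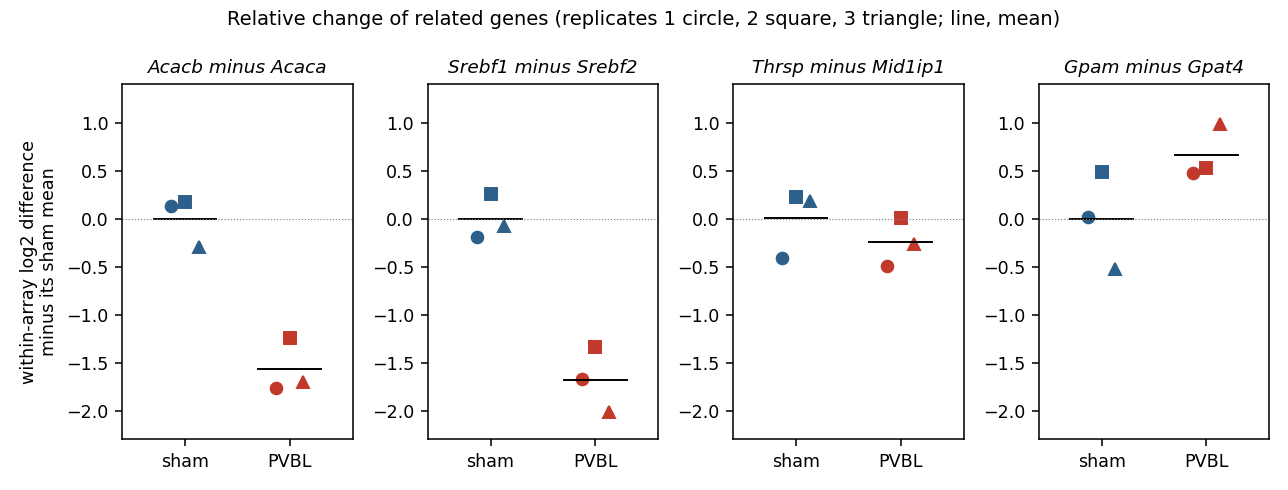
Within-array log2 difference between 2 related genes (Acacb minus Acaca, Srebf1 minus Srebf2, Thrsp minus Mid1ip1, Gpam minus Gpat4) minus the sham mean of that difference, for each of the 3 sham (blue) and 3 PVBL (red) arrays, with the group mean as a line. The groups are apart in the first 2 pairs, with changes of -1.57 and -1.67, and overlap in the other two.

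Thrsp encodes Spot 14, a small thyroid-hormone-responsive protein that accompanies lipogenesis and pairs with MIG12 (Mid1ip1), an activator of acetyl-CoA carboxylase. It read 5.81, 5.87 and 5.37 in PVBL and 6.57, 7.70 and 6.25 in sham. The groups did not overlap, and the nearest arrays lay 0.39 apart. The difference of -1.16 ± 0.37 (SE; 95% interval -2.02 to -0.30) stood at the threshold, with an adjusted p of 0.04996. It fell short of it without PVBL 1 (-1.22), PVBL 2 (-1.25), PVBL 3 (-1.0), sham 1 (-1.29) or sham 2 (-0.73), and passed without sham 3 (-1.45). It fell short as well with median (-1.03), quantile (-0.97), spike-in (-0.74) and hepatocyte-marker scaling (-0.78), and without the filter on dim probes (-1.16). Mid1ip1 itself read 4.04, 3.59 and 3.36 in PVBL and 4.71, 5.19 and 3.79 in sham, with a difference of -0.90 ± 0.36 (SE, adjusted p = 0.0938). It was called lower without sham 3 (-1.29), with array weights (-0.79) and with a replicate block (-0.90). Thrsp minus Mid1ip1 within an array changed by -0.25, with overlapping groups (exact two-sided permutation p = 0.3, and 0.3 adjusted). Counted as genes, the members called lower were 3 in the whole set of arrays, where 16.8% of all tested named genes were called lower. Leaving out 1 array cut the number of all probes called lower from 5374 to between 2198 and 5190. The members called lower were then between 1 and 3. Srebf1 remained in every case, and it was the 1 left without PVBL 1, PVBL 2, sham 1 or sham 2.

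**Figure D3:**
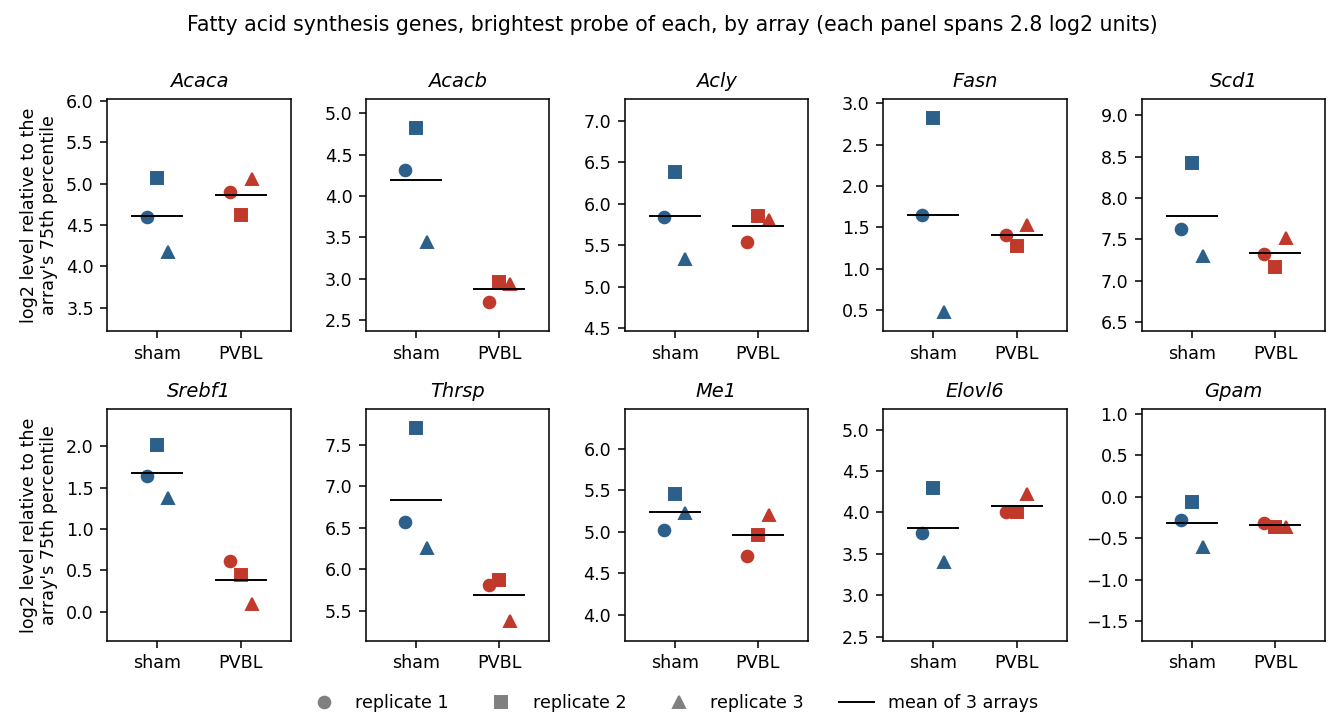
Log2 level relative to the 75th percentile for the brightest probe of each of the 10 genes, on the 3 sham (blue) and 3 PVBL (red) arrays, with the group mean as a line and the same span of the log2 axis in every panel. Srebf1, Acacb and Thrsp have PVBL points wholly below the sham points, and in the other genes the points overlap. Counted as probes, the groups were apart in 4 of 16 member probes, against 50.7% of all tested probes.

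The remaining enzymes, followed along the pathway from citrate to phosphatidic acid, showed no called change. Acly, ATP citrate lyase, which makes cytosolic acetyl-CoA, read 5.54, 5.85 and 5.81 in PVBL and 5.84, 6.39 and 5.34 in sham in its brighter probe. The difference was -0.13 ± 0.26 (SE; 95% interval -0.74 to 0.49; adjusted p = 0.73), and 0.12 ± 0.29 in the second probe (adjusted p = 0.765). Its sign therefore depended on the probe, and in the brighter probe it turned positive under median (0.01), quantile (0.06), spike-in (0.29) and hepatocyte-marker scaling (0.25). Me1, cytosolic malic enzyme, yields NADPH for the synthase. Its 3 probes differed by -0.27 ± 0.18, -0.38 ± 0.22 and -0.23 ± 0.17 (SE; adjusted p = 0.281, 0.228 and 0.332). All of its probes had overlapping groups, and the sign turned under spike-in scaling (0.04 to 0.19). With arrays weighted by their quality, the probes at -0.27 and -0.38 were called lower, at -0.46 and -0.58.

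Fasn, fatty acid synthase, which carries out the whole cycle of chain growth to palmitate, gave the widest sham spread of the members. It read 1.41, 1.28 and 1.53 in PVBL but 1.65, 2.82 and 0.48 in sham. The sham arrays thus covered a 5.07-fold range and the PVBL arrays a 1.19-fold range that lay inside it. The difference was -0.25 ± 0.52 (SE; 95% interval -1.47 to 0.98; adjusted p = 0.734). It was 0.34 without sham 2 and -0.83 without sham 3, so 1 sham array set the sign, and an absence of change is not shown. Elovl6, the elongase that takes palmitate to stearate, read 4.01, 4.01 and 4.22 in PVBL and 3.75, 4.30 and 3.40 in sham, a difference of 0.26 ± 0.23 (SE; 95% interval -0.28 to 0.81; adjusted p = 0.404). Scd1, the main hepatic stearoyl-CoA desaturase, which makes oleate, read 7.33, 7.17 and 7.52 in PVBL and 7.63, 8.42 and 7.30 in sham. Its difference was -0.44 ± 0.28 (SE; 95% interval -1.11 to 0.22; adjusted p = 0.258). For both, the groups overlapped. Gpam, mitochondrial glycerol-3-phosphate acyltransferase, which commits acyl-CoA to glycerolipid, read -0.32, -0.36 and -0.36 in PVBL and -0.28, -0.07 and -0.61 in sham. The means were -0.34 ± 0.02 and -0.32 ± 0.27 (SD, n = 3 each), with a 95% interval of the difference from -0.41 to 0.35. The endoplasmic reticulum enzyme for the same step, Gpat4, was lower by 0.70 on the log2 scale (SE 0.20, adjusted p = 0.0362), and Gpam minus Gpat4 changed by 0.67 with overlapping groups (exact two-sided permutation p = 0.2, and 0.267 adjusted).

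What the 10 genes shared was the order of the sham arrays. Sham 2 was the highest of the 3 sham arrays in 16 of 16 member probes, against 25.8% of all tested probes, and in 10 of 10 genes, against 26.7% of named genes. The full order sham 2, sham 1, sham 3 held in 13 of 16 probes, against 15.9% of all. The sham SD exceeded the PVBL SD in 14 of 16 probes, against 35.4% of all, and the median SD of the member probes was 0.45 in sham and 0.20 in PVBL, where all probes had 0.16 and 0.22. Centred on each probe's mean, the members' median was 0.06, 0.73 and -0.27 on sham 1 to 3 and -0.24, -0.19 and -0.01 on PVBL 1 to 3. The 4283 other probes with a mean level above 4 had medians of 0.10, 0.06 and 0.14 on the sham arrays, and the hepatocyte markers 0.15, 0.11 and 0.35, so neither of those sets had its peak on sham 2. Sham 2 stayed highest in 15 of 16 probes after normexp and in 16 of 16 after median, quantile and hepatocyte-marker scaling. Under spike-in scaling it was highest in 10 of 16, against only 2.67% of all probes. The SD was then larger in sham in 1 of 16 member probes, against 7.05% of all. Over the wider lists sham 2 was highest in 38 of 111 genes (34.2%): 9 of 18 of acetyl-CoA, citrate and NADPH supply, 6 of 10 of glucose and fructose entry, 5 of 10 acting on acetyl-CoA carboxylase or its product, 8 of 23 of elongation and desaturation, 5 of 20 regulators, 3 of 17 of glycerolipid assembly and 2 of 13 of insulin signalling.

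**Figure D4:**
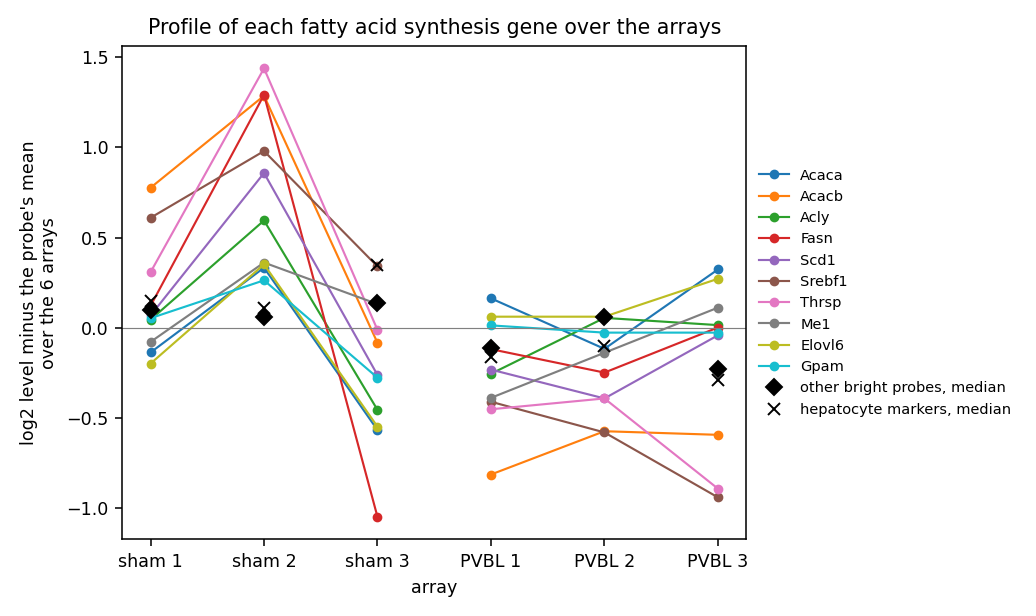
Log2 level of each member, centred on its own mean, over the 6 arrays (coloured lines), with the median of the other bright probes (diamonds) and of the hepatocyte markers (crosses). Every member has its highest sham value on sham 2, where the other bright probes' median is 0.06 and the hepatocyte markers' median 0.11.

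Across the 6 arrays, which share the scaling and the group difference, the members followed Fasn to different degrees. As a description, Pearson's r with Fasn was 0.98 for Gpam, 0.95 for Acly, 0.89 for Scd1, 0.79 for Elovl6 and 0.78 for Acaca. It was lower for the genes with a group difference, at 0.67 for Thrsp, 0.65 for Acacb and 0.41 for Srebf1, and 0.41 for Me1. The median was 0.78 over these 9 genes and 0 over 13555 other named genes. Outside the members, the named genes most like Fasn were Acot3, a peroxisomal acyl-CoA thioesterase, and Sik1, a salt-inducible kinase (both 0.97), Pklr, the liver pyruvate kinase of glycolysis, and Trim12c (both 0.96), Mfsd2a, a transporter of lysophosphatidylcholine, and Zfp267 (both 0.95), and Nfe2 and Snx8 (both 0.94). All of them had the sham order 2, 1, 3. That order follows largely from how they were chosen, since the spread of Fasn lay mostly among the sham arrays (SD 1.17, and 0.12 in PVBL).

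Genes around the pathway were read from lists of named genes, each by its brightest probe. Over 13582 named genes, 16.8% were called lower and 14.4% higher. Of the 111 listed genes tested, 26 were lower, 12 were higher and 73 were neither, with a median of -0.20. Without the dim-probe filter 15 were lower and 3 higher, and under spike-in scaling 1 was lower and 4 higher.

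Among 20 regulators of lipogenic transcription, 5 were lower, 2 were higher and 13 were neither (median -0.24). Mlxipl, the glucose-responsive factor ChREBP, read 4.91, 5.04 and 5.05 in PVBL and 5.76, 5.81 and 5.88 in sham, a difference of -0.82 ± 0.12 (SE, adjusted p = 0.00401). Srebf1 and Mlxipl, which encode the insulin- and glucose-responsive factors of lipogenesis, were thus both lower. Ppargc1b, a coactivator of SREBP-1, differed by -1.45 ± 0.26 (adjusted p = 0.00817). Scap, which escorts SREBP to the Golgi, and Insig1, which retains it in the endoplasmic reticulum, differed by -0.81 ± 0.14 and -0.88 ± 0.17 (adjusted p = 0.00786 and 0.0105). Insig2, which also retains SREBP and is named after its value was seen, differed by 0.39 ± 0.19 (adjusted p = 0.156). The other called regulators, named after their values were seen, were Rxra, the retinoid X receptor (-0.74 ± 0.18, adjusted p = 0.0209), and 2 that were higher. These were Mbtps2, the site-2 protease that frees SREBP (0.59 ± 0.14, adjusted p = 0.021), and Nfya, a CCAAT-binding subunit (0.64 ± 0.14, adjusted p = 0.0155). For Rxra and for Mbtps2 only 1 of 2 tested probes was called. Of 10 genes acting on acetyl-CoA carboxylase or its product, 2 were lower and 0 were higher by limma, with 8 neither (median -0.20). These were Mlycd, malonyl-CoA decarboxylase (-0.72 ± 0.14, adjusted p = 0.0117), and Prkag2, a regulatory subunit of AMP-activated kinase (-0.63 ± 0.15, adjusted p = 0.0198). Malonyl-CoA's mitochondrial synthase Acacb and its decarboxylase were thus both lower.

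The supply of acetyl-CoA, citrate and NADPH changed in both directions, with 5 of 18 genes lower, 2 higher and 11 neither (median -0.34). Pgd, 6-phosphogluconate dehydrogenase of the pentose phosphate pathway, which yields NADPH, read 4.15, 4.37 and 4.79 in PVBL and 2.72, 2.94 and 2.39 in sham. It was 3.36-fold higher (1.75 ± 0.21, adjusted p = 0.00208). The pyruvate dehydrogenase kinases, which switch off entry of pyruvate into acetyl-CoA, diverged. Pdk4 was 3.63-fold higher (1.86 ± 0.43, adjusted p = 0.019), and Pdk1 and Pdk2 were 2.68-fold and 2.29-fold lower (adjusted p = 0.0095 and 0.00811). Pcx, pyruvate carboxylase, Dlat, a pyruvate dehydrogenase subunit, and Idh1, cytosolic isocitrate dehydrogenase, were also lower and are named after their values were seen. They differed by -0.72 ± 0.13, -0.77 ± 0.12 and -0.47 ± 0.14 (adjusted p = 0.00742, 0.00537 and 0.0454), so Idh1 lay near the threshold. Of 10 genes of glucose and fructose entry, 4 were lower, 0 were higher by limma and 6 were neither (median -0.29). Slc2a5, the fructose transporter GLUT5, was 2.27-fold lower (-1.18 ± 0.20, adjusted p = 0.00703), and Khk, ketohexokinase, 1.89-fold lower (-0.92 ± 0.14, adjusted p = 0.00491). Tkfc, the triokinase that follows in fructose use, differed by 0.41 ± 0.25 (adjusted p = 0.231) and is named after its value was seen. Gckr, a regulatory protein of hepatic glucose phosphorylation, changed by -0.62 ± 0.13 (adjusted p = 0.013).

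Downstream of palmitate, elongation and desaturation had 7 genes higher, 3 lower and 13 neither of 23 tested (median 0.21). Elovl7, an elongase of saturated chains, read -0.63, -0.60 and 0.76 in PVBL and -4.30, -3.25 and -2.71 in sham, a difference of 3.26 ± 0.50 (adjusted p = 0.00475). Elovl7 was well above background on 2 of 3 sham arrays, so it passed the filter through the PVBL group only. The size of its difference is uncertain, and it was 1.81 after normexp. Elovl3, a circadian and sex-dependent elongase of the liver, was 5.18-fold lower (-2.37 ± 0.46, adjusted p = 0.0106), and Fads3, a member of the desaturase cluster, 3.44-fold higher (1.78 ± 0.29, adjusted p = 0.00569). Acsl1, the main hepatic acyl-CoA synthetase, was 2.64-fold lower (-1.40 ± 0.22, adjusted p = 0.00525). In glycerolipid assembly 2 of 17 genes were lower, 1 was higher and 14 were neither (median -0.03). Dgat2, which completes triglyceride from newly made fatty acid, read 7.80, 7.63 and 7.15 in PVBL and 8.51, 8.61 and 8.46 in sham, a difference of -1.0 ± 0.19 (adjusted p = 0.00948). The endoplasmic reticulum acyltransferases Gpat3 and Gpat4 moved in opposite directions, by 0.90 ± 0.26 (adjusted p = 0.0363) and, as above, downward.

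In hepatic insulin signalling and its targets 5 of 13 genes were lower, 0 were higher by limma and 8 were neither (median -0.24). G6pc, glucose-6-phosphatase, and Pck1, phosphoenolpyruvate carboxykinase, which insulin represses, changed by -1.97 ± 0.30 (adjusted p = 0.00485) and -1.07 ± 0.27 (adjusted p = 0.0237). Irs2, an insulin receptor substrate, read 2.66, 2.13 and 1.79 in PVBL and 3.91, 3.84 and 3.06 in sham, 2.65-fold lower (adjusted p = 0.0142). Trib3, a pseudokinase that binds Akt, differed by -1.12 ± 0.19 (adjusted p = 0.00622), and Insr, the insulin receptor, named after its value was seen, by -0.86 ± 0.20 (adjusted p = 0.0183). Of the 3 Insr probes tested 2 were called lower. Igfbp1, a further gene that insulin represses, differed by -0.11 ± 0.33 (adjusted p = 0.822) and is named after its value was seen. Of the 24 called genes that the rule names from these lists and that are reported here, 17 kept their call without any 1 array. Gpat4 lost it without each PVBL array, sham 1 or sham 3 (values then -0.80 to -0.53), and Gpat3 without PVBL 2, PVBL 3, sham 2 or sham 3 (0.70 to 0.95). Pck1 lost it without any 1 sham array (-1.12 to -0.97), and Gckr without sham 2 (-0.60). Without sham 1 or sham 2 it was also lost by Pdk4 (1.72 and 1.87), Irs2 (-1.25 and -1.29) and Prkag2 (-0.54 and -0.65). Under spike-in scaling 19 of the 24 lost their call, under hepatocyte-marker scaling 15 and without the filter on dim probes 9 (Pdk4, Gckr, Gpat3, Gpat4, Irs2, Pck1, Mlycd, Prkag2 and Insig1). All 24 kept their direction under every setting run in which they were measured.

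**Figure D5:**
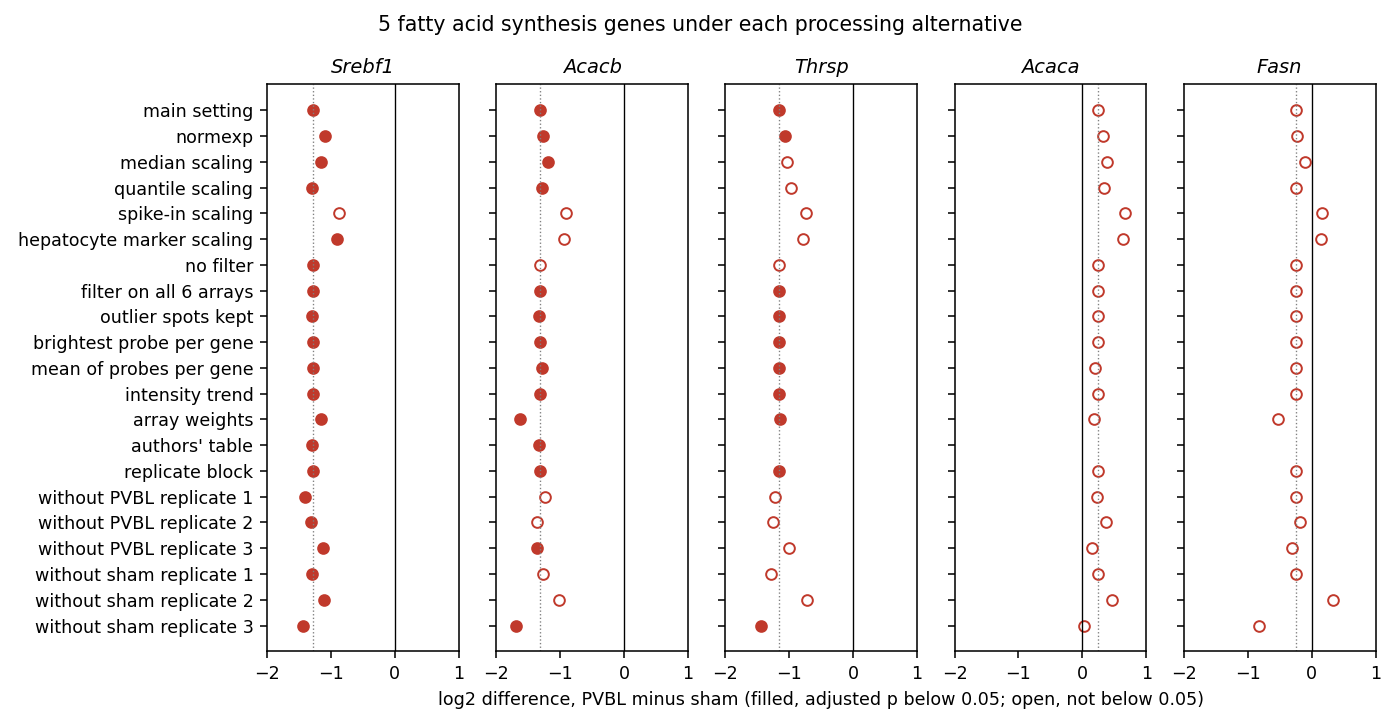
Log2 difference of PVBL minus sham for the brightest probe of Srebf1, Acacb, Thrsp, Acaca and Fasn under the main setting and each alternative, filled where the adjusted p was below 0.05. Srebf1 is called in all but the spike-in setting, Acacb and Thrsp in some of them, Acaca in none, and Fasn in none and with values on both sides of 0. The deposited table holds only probes with groups that do not overlap, so a call kept in that setting adds no support.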

How the data were processed

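Right-lobe liver RNA from 6 samples was hybridised to single-colour Agilent arrays, per the labels' protocols after Cy3 labelling. The deposited scanner files hold intensity values per spot, already corrected for background per the file headers, which name Agilent Feature Extraction 10.7.3.1, array design 028005 and the mm9 mouse build. Version 9.1 stands in the submitters' processing notes. The deposited value table holds log2 values of 7850 probes, all with groups that do not overlap. These log2 values matched the scaled intensities centred on each probe's median (r of at least 0.9997), with column medians of -0.18, -0.15 and -0.22 in PVBL and 0.17, 0.15 and 0.18 in sham, and the table served only as an alternative.

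Groups came from the labels' source names. Control spots (3671 per array) and outlier spots (between 115 and 201) were dropped, replicate spots were averaged per probe, and log2 of the processed signal minus the array's 75th percentile was used. Probes were kept where every array of either group was well above background (27909). Of the probes, 26413 (47.4%) were named by RefSeq accession through a GRCm38.p6 gene table, used for names only since the array build differs. Limma 3.58.1 in R 4.3.3 (lmFit, eBayes, two-sided) was fitted over all tested probes with Benjamini-Hochberg adjustment and calls at 0.05. Standard errors are those of limma, and SD is over 3 arrays. The number of arrays limits the precision. The script was tested on simulated data.

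The 10 genes and the wider lists were chosen with earlier results of these data known. Named from each wider list were up to 4 called genes with the largest difference, besides Alb, partner genes and the 8 genes most like Fasn, and 1 called gene that this rule takes is not reported here. Alternatives were normexp (on median signals and offset 50, since no mean signal column was in the files used here), other scalings, filters, probe rules, an intensity trend, array weights, the deposited table, a replicate block and leaving out each array. Whether replicate numbers pair the samples is not settled, and the main fit did not pair them. Same-numbered samples deviated with r of 0.20, -0.04 and 0.23, with no r of differently numbered samples beside these. Same-numbered arrays also shared a slide column, and those numbered 3 had the lowest spike-in medians (log2 11.04 in PVBL and 11.12 in sham).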

Additional observations from a re-analysis of the deposited data

How the results depend on the processing

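Results for the members, their partner genes, Alb and the genes the rule names from the wider lists were recomputed under 20 alternatives. Of these 14 did not leave out an array, and the cause of each move was not tested. Genes named after their values were seen, those named for likeness to Fasn and markers other than Alb were not followed through them. Scaling mattered most, since it moved the median of all probes from -0.19 to 0.23 (spike-in) and 0.19 (hepatocyte markers), and to -0.06 and -0.12 with median and quantile scaling. All probes called lower were 3289 with median scaling, 95 with spike-in, 890 with hepatocyte markers, 1945 without the filter and 10374 with array weights, and those called higher 902, 4832, 1676 and 5367 in the last 4, against 5374 and 3142. Members called lower were 0 with spike-in scaling, 1 with hepatocyte markers and 1 without the filter. Wider-list genes called lower were 1, 5 and 15 in those settings, and those called higher 4 with spike-in, 3 without the filter and 25 with array weights. The median over the members was 0.16 with spike-in scaling, 0.12 with hepatocyte markers and -1.31 in the deposited table, which holds only Acacb and Srebf1. With spike-in scaling sham 2 was highest in 10 and the sham SD larger in 1 of 16 member probes, against 2.67% and 7.05% of all probes.

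Among the results reported here, signs turned only in those that were not called. With median scaling Acly was 0.01 and Gpam 0.10, and with quantile scaling Acly 0.06 and Alb 0.08. With spike-in scaling Fasn was 0.17, Me1 0.14, 0.04 and 0.19, Acly 0.29, Gpam 0.39 and Alb 0.13, and with hepatocyte markers 0.14, 0.11, 0.00 and 0.15, 0.25, 0.35 and 0.10. With array weights the second Acly probe was -0.25 and the third Acaca probe -0.07.

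Leaving out 1 array gave 2198 to 5190 probes lower and 1962 to 3306 higher, 1 to 3 members lower, 18 to 24 wider-list genes lower and 5 to 10 higher, and a members' median from -0.54 to -0.01. Differences then ran from -0.83 to 0.34 for Fasn, -0.38 to 0.14 and -0.14 to 0.41 for Acly, -0.17 to 0.10 for Gpam, and -0.16 to 0.59 and 0.00 to 0.27 for the dimmer Acaca probes. With a replicate block Srebf1, Acacb and Thrsp kept their calls (adjusted p = 0.00719, 0.0259 and 0.0249), and 4561 probes were lower and 2829 higher.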
